A study of Mus musculus with 56 samples.

Results

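The water and urea channels of the mouse kidney were followed here over 24 h in mice fed only by day or only by night. The genes were 7 aquaporins (Aqp1, Aqp2, Aqp3, Aqp4, Aqp6, Aqp7 and Aqp11), the vasopressin type 2 receptor Avpr2 and the urea transporter gene Slc14a2. They were listed by name, and all 9 were among the 17027 genes of the kidney table. All 9 had a mean of at least 1 TPM (a level per transcript length that sums to the same total in every library) and so were among the 12534 genes tested. The kidneys came from 56 female C57BL/6J mice, 9 weeks of age, and their poly(A) RNA was sequenced. The labels name no transgene or drug in either arm. All mice were housed under a 12 h light and 12 h dark cycle. They had food only in the daytime (DRF, daytime-restricted feeding) or only at night (NRF, nighttime-restricted feeding) for 7 days. Kidneys were taken at 7 zeitgeber times (ZT, hours after lights on), ZT0, 4, 8, 12, 16, 20 and 24, with 4 mice in each of the 14 groups. No mice fed ad libitum were analysed here. The labels number the libraries within a group but give no identity of the animals, so p-values measure the spread between these libraries.

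Aquaporins are membrane channels that let water, and in some members glycerol, pass through cells. Along the nephron AQP1 carries water across the proximal tubule and the thin descending limb. In the principal cells of the collecting duct AQP2 sits on the luminal side, while AQP3 and AQP4 sit on the opposite side. Vasopressin, bound by AVPR2 on these cells, raises cyclic AMP, sends AQP2 to the luminal membrane and increases transcription of Aqp2. Slc14a2 encodes the UT-A urea transporters of the inner medullary collecting duct and thin limb, which help to build the osmotic gradient of the medulla. AQP6 lies in vesicles of intercalated cells, AQP7 is a glycerol and water channel of the straight proximal tubule, and AQP11 is an intracellular channel of the proximal tubule.

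Expression differed widely between the 9 genes on the per-length TPM scale. Aqp1 was the most abundant at 1321 ± 218 TPM (mean ± SD, n = 56 libraries), above 99.4% of genes with recovered reads. Aqp2 followed at 513 ± 280 TPM and Aqp3 at 243 ± 57.5 TPM. Slc14a2 had 118 ± 90.2 TPM, Aqp6 97.9 ± 21.6 TPM and Aqp4 72.6 ± 40.02 TPM. The lowest were Avpr2 at 38.0 ± 11.9 TPM, Aqp7 at 24.6 ± 3.64 TPM and Aqp11 at 16.5 ± 2.61 TPM. The ranges over libraries of Slc14a2, Aqp6 and Aqp4 overlapped, so their order was not separated by the spread, and Avpr2, Aqp7 and Aqp11 overlapped in the same way. Read support was high for every gene but 1. The fewest reads in any library were 15077 for Aqp1, 1622 for Aqp2, 2127 for Aqp3, 736 for Aqp4, 1052 for Aqp6, 341 for Aqp7, 662 for Aqp11 and 322 for Avpr2, but 3 for Slc14a2. TPM levels of Slc14a2 and Aqp4 rest on a transcript length found from the table itself (3201 and 5082 bases, against 5171 and 6233 in the annotation), which affects their level but not ratios between libraries.

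In GRCm38, Aqp2 (chromosome 15, 99579055 to 99584547) and Aqp6 (chromosome 15, 99601400 to 99605477) are neighbours on the plus strand. Aqp3 (chromosome 4, 41092722 to 41098183) and Aqp7 (chromosome 4, 41033074 to 41048139) lie close together on the minus strand. Aqp1 is on chromosome 6, Aqp11 on chromosome 7 and Avpr2 on chromosome X. Promoters are shown for Aqp2, Aqp3 and Avpr2, the members that differed between the regimens at a single time point below, so that the 2 that were high together at ZT8 can be read beside the receptor. Each is the 250 bases before the RefSeq start (GRCm38.p6), 5′ to 3′ on the strand of the gene, with matches to 4 motifs in capitals.
Aqp2, chr15:99578806-99579055, plus strand: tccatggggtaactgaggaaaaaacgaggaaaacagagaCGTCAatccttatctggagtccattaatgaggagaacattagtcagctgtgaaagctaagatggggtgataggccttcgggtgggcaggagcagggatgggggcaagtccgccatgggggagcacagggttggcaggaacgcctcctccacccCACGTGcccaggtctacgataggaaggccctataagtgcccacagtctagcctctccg
Aqp3, chr4:41098184-41098433, minus strand: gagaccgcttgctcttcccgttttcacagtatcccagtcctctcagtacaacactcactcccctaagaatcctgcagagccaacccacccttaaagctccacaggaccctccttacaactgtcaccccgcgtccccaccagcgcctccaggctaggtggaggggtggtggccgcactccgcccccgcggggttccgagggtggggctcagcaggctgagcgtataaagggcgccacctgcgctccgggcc
Avpr2, chrX:73891852-73892101, plus strand: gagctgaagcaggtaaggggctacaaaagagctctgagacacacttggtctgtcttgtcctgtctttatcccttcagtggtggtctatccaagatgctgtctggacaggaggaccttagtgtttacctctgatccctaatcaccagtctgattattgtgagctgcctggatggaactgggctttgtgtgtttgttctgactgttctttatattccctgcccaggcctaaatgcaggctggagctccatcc
The motifs, searched on both strands, were the E-box CACGTG read by clock factors, the cyclic AMP response element core TGACG, the NFAT5 core TGGAAA and the nuclear receptor core AGGTCA. The Aqp2 window held 2 matches, an E-box 58 to 53 bases before the start and a cyclic AMP core on the opposite strand 211 to 207 bases before it. No motif was found in the Aqp3 and Avpr2 windows. Of 32851 promoter windows of that length, 6.02% held the E-box, 17.8% the cyclic AMP core, 18.6% the NFAT5 core and 14% the nuclear receptor core. In the 12808 windows of tested genes the shares were 8.15%, 25%, 15.1% and 11.4%. A match is a string of letters and was not tested for binding. Positions and promoter windows of Aqp4 and Slc14a2 are not reported here, so nothing is said of motifs in them. Among the others, Aqp1 held no match, Aqp6 held an E-box 29 to 24 bases before its start and Aqp11 a nuclear receptor core 230 to 225 bases before its start. Aqp7, with 2 RefSeq starts and overlapping windows, held nuclear receptor cores 223 to 218 and 101 to 96 bases before one start. Before the other start, the former of these lay 49 to 44 bases away and an NFAT5 core 234 to 229 bases away.

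Markers of urothelium, which lines the renal pelvis around the papilla, varied between libraries. They were low in some libraries and high in others: Psca ranged from 0.168 to 548 TPM and Upk3a from 0 to 115 TPM, with Upk3a at 0 in 6 libraries. A urothelial score, the mean log2(TPM + 1) of Upk3a and Psca, was under 1 in 17 libraries, 9 of NRF and 8 of DRF. Psca was above 100 TPM in 11 libraries, 6 of NRF and 5 of DRF. Libraries held between 21.8 and 24.5 M recovered reads (M, 1e6). Bulk tissue cannot tell fewer cells of a type from less RNA per cell. Defining markers of the segments were present throughout: no library was at 0 for any of the markers of proximal tubule, thick ascending limb, principal cells or intercalated cells that had recovered reads.

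Slc14a2 was the member with the steepest relation to these markers. In the 17 libraries with a urothelial score under 1 it ranged from 0.136 to 127 TPM with a median of 8.45 TPM. In the other 39 libraries it ranged from 31.2 to 368 TPM with a median of 159 TPM. Within the 14 groups Slc14a2 rose by 0.71 ± 0.11 on the log2 scale (slope ± SE) for each log2 unit of the score (limma, adjusted p = 7.24e-07). The plot against the score shows that the rise was steep at low scores and flat above them, so a straight line describes it only in part. Aqp4 and Aqp2 had the next steepest slopes, 0.26 ± 0.03 (adjusted p = 1.71e-10) and 0.19 ± 0.02 (adjusted p = 4.43e-11). Slopes of Avpr2 (0.09 ± 0.01), Aqp6 (0.06 ± 0.02), Aqp3 (0.05 ± 0.01) and Aqp1 (0.04 ± 0.01) were shallower and also called at an adjusted p under 0.05. Aqp11 fell by 0.04 ± 0.01 per unit (adjusted p = 0.000618), and Aqp7 had a slope of 0.01 ± 0.01 (adjusted p = 0.493). In all 8 of the 9 genes were called, against 54.9% of all genes tested, so a slope on the score was common in this table. Without the 11 libraries with Psca above 100 TPM, 4 of the 9 slopes were called (Aqp1, Aqp2, Aqp4 and Slc14a2). The call for Aqp1 was lost when the table was rescaled by the median of ratios (slope 0.02, adjusted p = 0.140). On the deposited values the calls for Aqp1 (adjusted p = 0.389) and Aqp6 (adjusted p = 0.0592) were both lost.

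**Figure D1:**
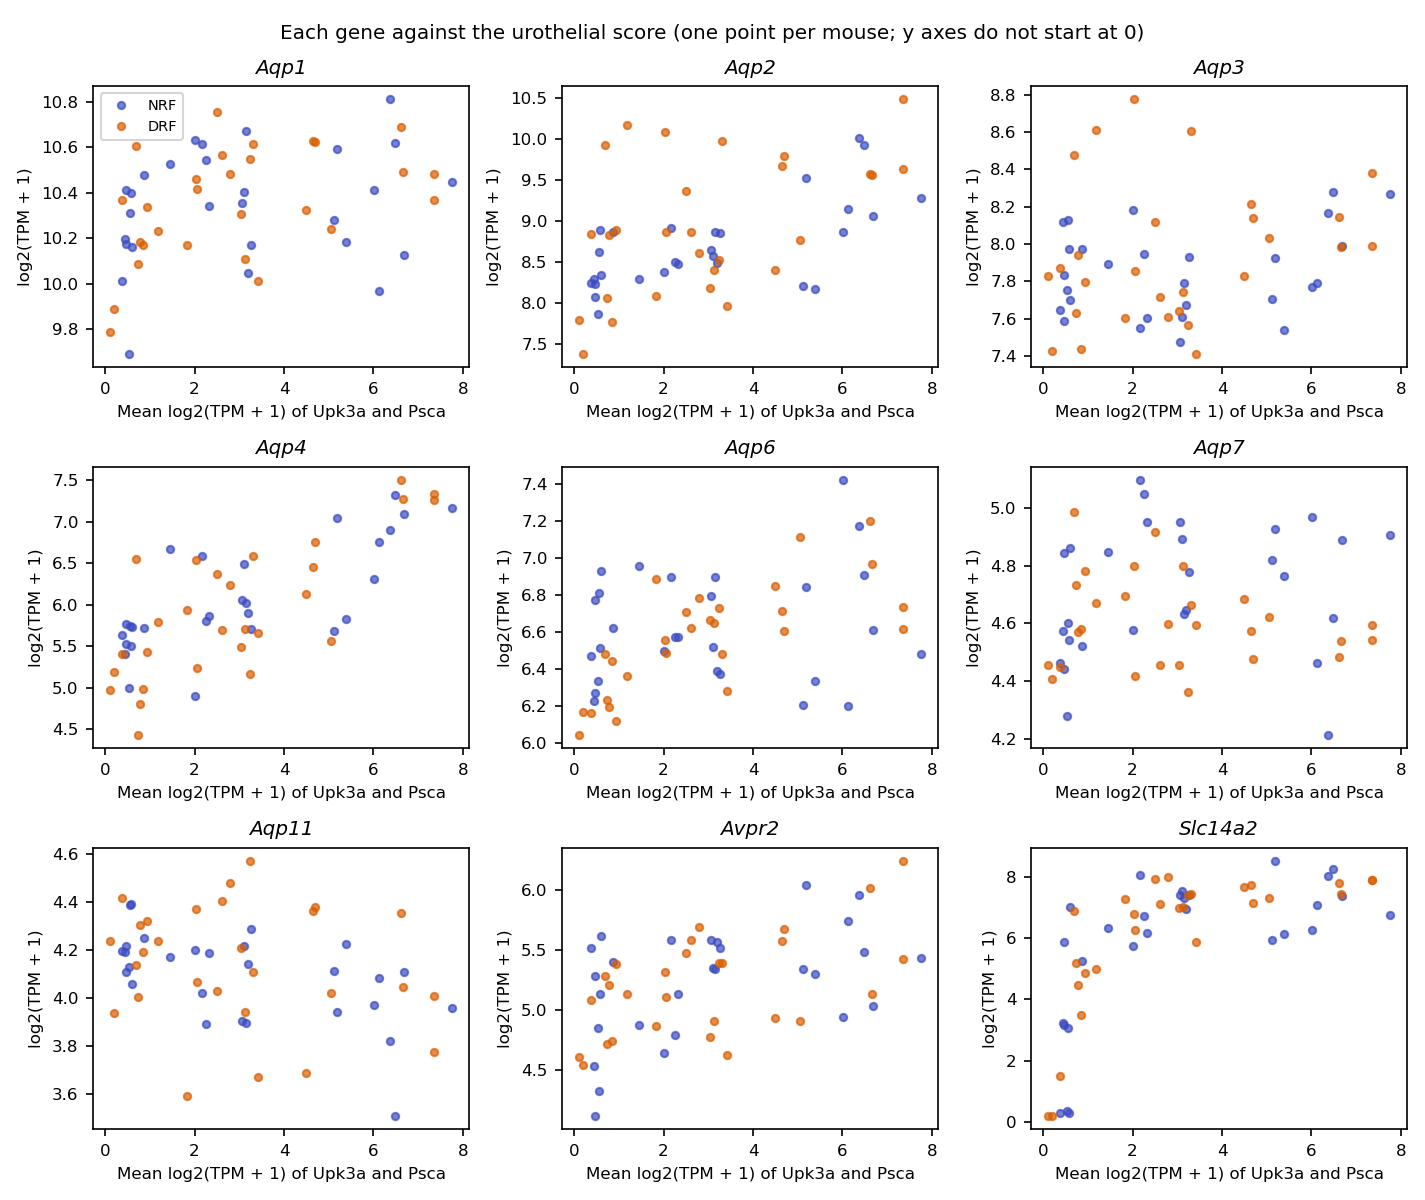
Expression of each gene, as log2(TPM + 1), against the urothelial score, the mean log2(TPM + 1) of Upk3a and Psca, with one point for each of the 56 mice (blue NRF, orange DRF). Slc14a2 ranged from 0.136 to 127 TPM where the score was under 1 and from 31.2 to 368 TPM elsewhere, while Aqp7 showed no called slope.

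To determine whether the channels cycled over the day, a 24-h cosine was fitted within each regimen. Under NRF, 2 of the 9 genes, Aqp3 and Avpr2, were called rhythmic, against 52.6% of all genes tested. Under DRF, 5 of the 9, Aqp1, Aqp2, Aqp3, Aqp11 and Avpr2, were called, against 36.2% of all genes. Median amplitude, the distance from the mean to the peak on the log2 scale, was 0.14 in the 9 genes under NRF, where it was 0.13 over all genes. Under DRF it was 0.35 in the 9 genes and 0.11 over all genes. A fitted amplitude is never negative and grows with the spread, and the 9 genes were noisier than most. Their median SE of the amplitude was 0.07 under each regimen, against 0.04 over all genes, so these medians are not a like comparison. A direct test of the interaction between regimen and rhythm called 3 of the 9, Aqp2, Aqp11 and Avpr2, against 46.0% of all genes.

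**Figure D2:**
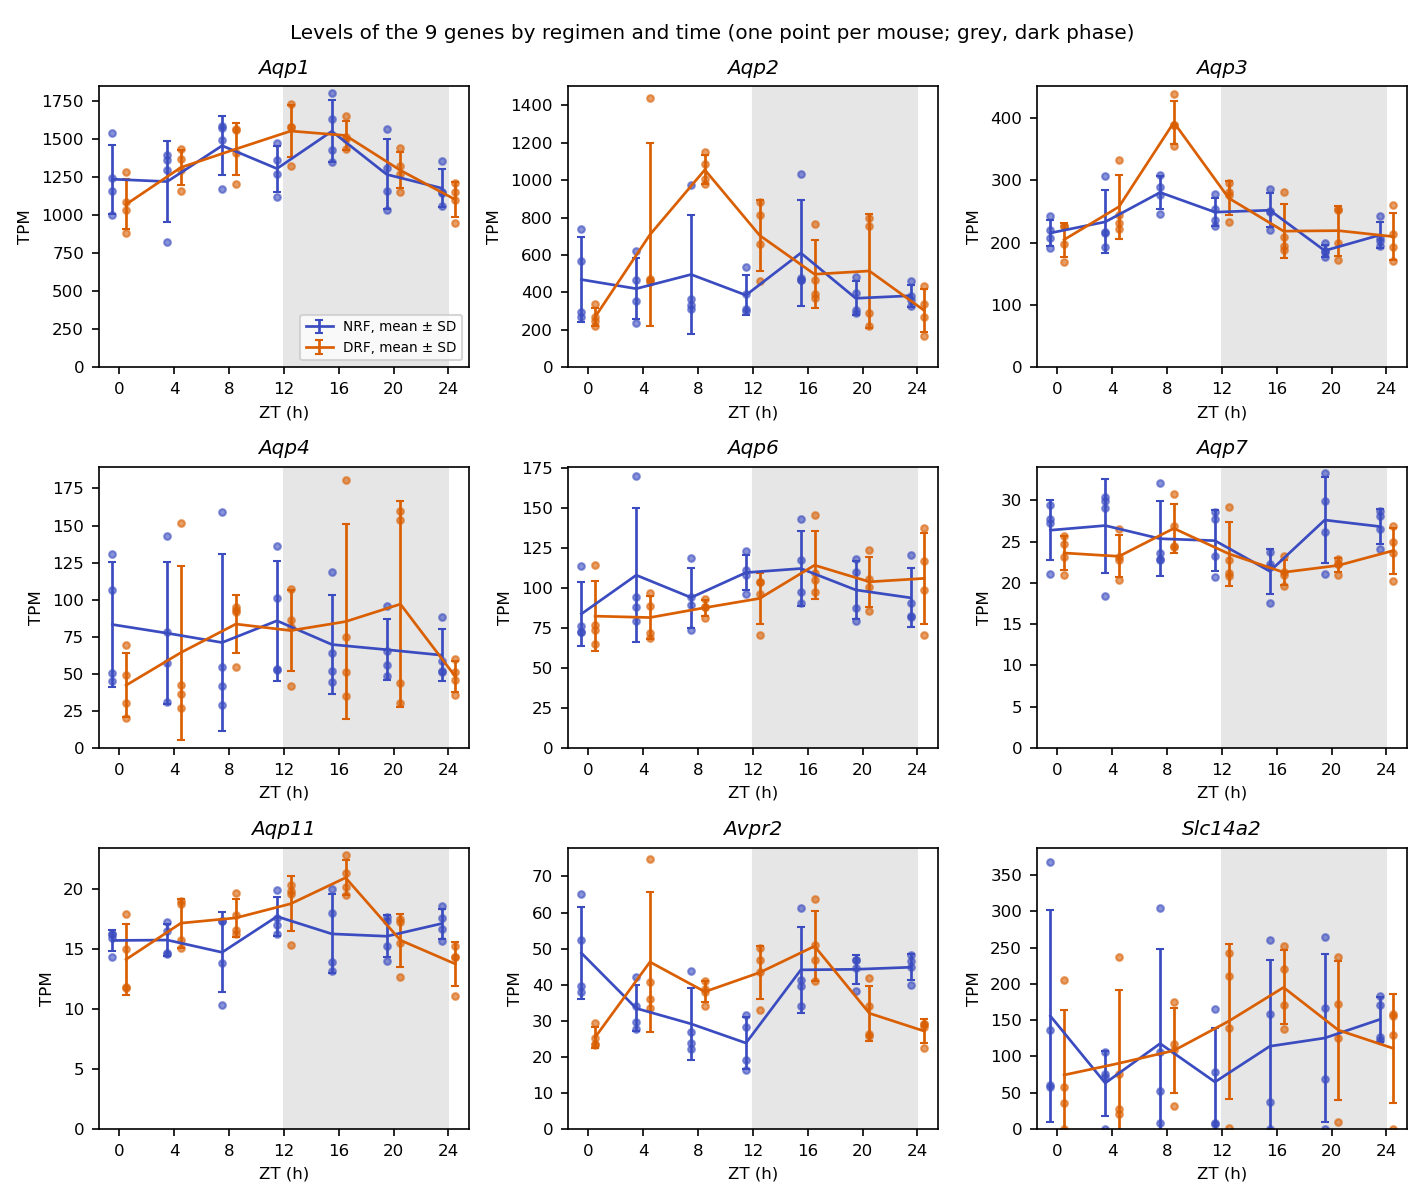
TPM of the 9 genes by ZT for NRF (blue) and DRF (orange), with one point per mouse (4 per group), lines through group means, error bars of 1 SD and the dark phase in grey. Aqp2 and Aqp3 peaked at ZT8 under DRF, and Avpr2 was low at ZT0 and ZT24 under DRF and low at ZT12 under NRF.

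Aqp2, the vasopressin-regulated water channel, had the largest called amplitude of the 9 genes. Under DRF its level was lowest around lights on and highest at ZT8. The DRF libraries at ZT0 held 249, 221, 267 and 337 TPM, and those at ZT24 held 436, 338, 271 and 165 TPM. At ZT8 they held 1149, 1089, 977 and 1008 TPM, with no overlap with either group. Means ± SD were 268 ± 49.4 TPM at ZT0, 709 ± 488 TPM at ZT4 and 1056 ± 78.1 TPM at ZT8. They were 705 ± 188, 497 ± 183 and 514 ± 303 TPM in the next groups and 303 ± 114 TPM at ZT24 (n = 4 each). The large spread at ZT4 came from replicate 4, with 1440 TPM beside 455 to 473 TPM in the other libraries. That library also held the most Psca of all 56, at 548 TPM. The DRF cosine had an amplitude of 0.82 ± 0.15 and a peak at ZT 9.67 ± 0.75 h (± SE, adjusted p = 0.000719), a fitted peak 3.12-fold above the trough. Under NRF the amplitude was 0.12 ± 0.14 and no rhythm was called (adjusted p = 0.753). The interaction of rhythm with regimen was called (adjusted p = 0.00703) and kept its call without any 1 library (adjusted p up to 0.0135), but not when replicate 2 was left out of every group (adjusted p = 0.0775).

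At ZT8 the regimens separated. The NRF libraries held 975, 313, 363 and 331 TPM of Aqp2, all below the lowest DRF library, although replicate 1 came close to it. DRF was higher than NRF by 1.26 ± 0.39 log2 units at ZT8 (adjusted p = 0.0190), a 2.40-fold difference with a 95% interval of 0.48 to 2.05 log2 units. Of all genes tested, 16.9% were called at ZT8, and Aqp2 and Aqp3 were the 2 called members. The DRF libraries at this peak held Psca at 2.06, 4.16, 1.32 and 11.4 TPM. They held 31.2, 109, 118 and 175 TPM of Slc14a2 and 54.6, 92.0, 93.0 and 94.8 TPM of Aqp4. The NRF libraries at ZT8 held 304, 8.45, 106 and 53.0 TPM of Slc14a2 and 159, 41.5, 54.7 and 28.9 TPM of Aqp4. The share of medulla in these libraries was not tested. In the NRF group Psca was 249 TPM in replicate 1, the library with 975 TPM of Aqp2, and 0.850 to 5.11 TPM in the others. With the urothelial score as a covariate the ZT8 difference was 1.46 (adjusted p = 3.09e-06), and without the libraries with Psca above 100 TPM it was 1.65 (adjusted p = 2.71e-05). Leaving out NRF ZT8 replicate 2, 3 or 4 ended the call, with adjusted p of 0.0661, 0.0524 and 0.0672 and differences of 1.10, 1.18 and 1.13. At the other time points Aqp2 was not called: DRF minus NRF was -0.69 and -0.41 at ZT0 and ZT24, 0.64 at ZT4, 0.87 at ZT12, and -0.27 and 0.29 at the dark-phase hours ZT16 and ZT20, with adjusted p from 0.107 to 0.727. Aqp2 was also called at ZT4 (0.91, adjusted p = 0.0011) and ZT12 (0.72, adjusted p = 0.0110) once the urothelial score was a covariate, and at ZT12 (0.91, adjusted p = 0.0183) without the libraries above 100 TPM of Psca. Without a covariate none of the 9 genes was called by limma at ZT4, ZT16 or ZT20 (0, 1 and 2 with an unadjusted p under 0.05), against 30.7%, 8.69% and 18.8% of all genes. This count depended on the scaling, since Avpr2 was called at ZT4 and ZT20 after rescaling by the median of ratios and on the deposited values. Averaged over the day the difference was 0.38 ± 0.15 (adjusted p = 0.0966, 95% interval 0.07 to 0.68), which missed the threshold. It was called without DRF ZT20 replicate 2 (0.43, adjusted p = 0.0499) or NRF ZT8 replicate 1 (0.44, adjusted p = 0.0382), and with the urothelial score as a covariate (0.37, adjusted p = 0.00185). Of 8 principal cell markers, 3 (Hsd11b2, Scnn1b and Scnn1g) were called lower under DRF over the day and none higher, a count that held under each of 3 other scalings. Over all genes 9.53% were called lower and 2.9% higher, a split that became 595 genes lower and 610 higher after rescaling by the median of ratios. Lower calls also came in 4 of 8 intercalated cell markers, 2 of 8 of thick ascending limb and distal convoluted tubule, 1 of 5 glomerular and 3 of 4 immune markers. The intercalated count did not hold: it was 3 after rescaling by the median of ratios, and 2 with effective library size and on the deposited values. No marker in those lists was called higher, and urothelial, thin limb and proximal tubule markers had no call. With the score of the 8 principal cell markers as a covariate the difference in Aqp2 over the day was 0.59 (adjusted p = 3.19e-07) and that at ZT8 was 1.60 (adjusted p = 9.02e-09). This score holds the 3 markers called lower under DRF, so it was not independent of the regimen. Of its 8 markers, 5 rose and 2 fell with the urothelial score. These differences are therefore not a measure at equal composition. Aqp2 was then also called at ZT4 (1.18, adjusted p = 2.37e-06), ZT12 (adjusted p = 7.28e-07) and ZT24 (-0.56, adjusted p = 0.0204).

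Aqp3, the exit channel for water and glycerol on the other side of the same cells, peaked at almost the same hour as Aqp2 under DRF and also cycled under NRF. DRF libraries at ZT8 held 389, 438, 355 and 389 TPM and NRF libraries 309, 277, 246 and 290 TPM, which did not overlap. The difference at ZT8 was 0.49 ± 0.14 log2 units, or 1.40-fold (adjusted p = 0.00998), and it stayed called without any 1 of the 56 libraries (adjusted p up to 0.0433). Leaving a numbered replicate out of every group was a harder check. Calls at a time point over the 9 genes then ran from 1 to 7, in place of 5, and which of them fell is not given here. The differences at the other time points, with no covariate, lay between -0.22 and 0.21, with adjusted p of 0.302 to 0.931. ZT4 (0.31, adjusted p = 0.00663) and ZT12 (0.26, adjusted p = 0.02765) were called with the score of principal cell markers as a covariate. That score holds 3 markers called lower under DRF. The lowest and highest DRF group means were 205 ± 27.5 TPM (ZT0) and 393 ± 33.9 TPM (ZT8). Under NRF they ran from 187 ± 9.46 TPM at ZT20 to 280 ± 26.6 TPM at ZT8. The cosine amplitude was 0.40 ± 0.07 under DRF (adjusted p = 0.000186) and 0.22 ± 0.04 under NRF (adjusted p = 0.000708). Peaks lay at ZT 8.56 ± 0.62 h under DRF and ZT 9.58 ± 0.81 h under NRF, a shift of -1.02 ± 1.02 h. The interaction was not called for Aqp3 (adjusted p = 0.134), but it was called with the urothelial score as a covariate (adjusted p = 0.0132) and with the libraries above 100 TPM of Psca left out (adjusted p = 0.00905). It was called as well after rescaling by the median of ratios (adjusted p = 0.0323). The difference over the day was 0.12 ± 0.05 (adjusted p = 0.151) with no covariate or rescaling. After rescaling by the median of ratios it was called (0.15, adjusted p = 0.0301). It was also called with the score of principal cell markers (0.18, adjusted p = 0.000338) and with the urothelial and thin limb scores (0.11, adjusted p = 0.0498) as covariates.

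Avpr2, the receptor through which vasopressin acts on these cells, had fitted peaks almost 10 h apart under DRF and NRF. Under NRF the group means were 44.1 to 48.8 TPM from ZT16 to ZT24 and at ZT0: 52.5, 37.9, 39.7 and 65.1 TPM at ZT0 and 39.8, 46.5, 44.8 and 48.3 TPM at ZT24. At ZT12 NRF libraries held 31.7, 16.3, 19.1 and 28.3 TPM, below every NRF library at ZT0 and ZT24. Under DRF the order of these times was turned around, with 23.6, 23.4, 25.3 and 29.5 TPM at ZT0 and 46.8, 50.1, 43.6 and 33.0 TPM at ZT12. At ZT0 and at ZT12 the regimens did not overlap. DRF was lower by 0.89 ± 0.21 log2 units at ZT0 (adjusted p = 0.00178, 20% of all genes called) and higher by 0.87 ± 0.21 at ZT12 (adjusted p = 0.00195, 21.1% called). At ZT24 DRF libraries held 29.0, 29.0, 28.2 and 22.3 TPM, all below the NRF libraries. The ZT24 difference was -0.71 ± 0.21 (adjusted p = 0.0152, 15.8% called), and without DRF ZT24 replicate 4 it was -0.62 with an adjusted p of 0.0541. Differences at ZT4, ZT8, ZT16 and ZT20 were 0.40, 0.42, 0.21 and -0.48 and were not called (adjusted p of 0.109 to 0.584). After rescaling by the median of ratios ZT4 (0.49, adjusted p = 0.0321) and ZT20 (-0.51, adjusted p = 0.0379) were called, as they were on the deposited values (adjusted p = 0.0481 and 0.0348). ZT4 (0.53, adjusted p = 0.00355), ZT8 (0.51, adjusted p = 0.00744) and ZT20 (-0.64, adjusted p = 0.00102) were called with the urothelial score as a covariate.

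The Avpr2 cosine had an amplitude of 0.47 ± 0.08 with a peak at ZT 21.5 ± 0.70 h under NRF (adjusted p = 0.00014). Under DRF the amplitude was 0.35 ± 0.08 with a peak at ZT 11.8 ± 1.02 h (adjusted p = 0.00591). The shift of the fitted peak, DRF minus NRF and taken the shorter way around 24 h, was -9.71 ± 1.24 h. The interaction had an adjusted p of 2.45e-06, the lowest of the 9 genes. The mesor, the mean over the day, was called by limma in none of the 9 genes (3 with an unadjusted p under 0.05), against 12.4% of all genes, 2.9% higher and 9.53% lower under DRF. This split of calls depended on the scale: after rescaling by the median of ratios 610 genes were higher and 595 lower, in place of 364 and 1195. Avpr2 differed by 0.10 ± 0.08 (adjusted p = 0.428, 95% interval -0.06 to 0.27), and by 0.21 (adjusted p = 0.00312) with the score of principal cell markers as a covariate. That score holds 3 markers called lower under DRF. Shape under DRF was broad rather than a single cosine, and a 12-h component was called (amplitude 0.30, adjusted p = 0.00779), as it was in 30.7% of all genes under DRF and 0.886% under NRF. The highest DRF group mean was at ZT16, 50.7 ± 9.67 TPM. It was 46.3 ± 19.3 TPM at ZT4, 38.1 ± 2.87 TPM at ZT8 and 43.4 ± 7.39 TPM at ZT12, so the fitted peak lay between 2 higher groups. The ZT4 group under DRF held 33.5, 35.9, 40.9 and 74.96 TPM, of which the highest was replicate 4 with the high Psca. With the urothelial score as a covariate the interaction had an adjusted p of 5.44e-09 and the ZT0 and ZT12 differences were -0.70 and 0.80, both called. With the score of collecting duct principal cell markers (Hsd11b2, Scnn1b, Scnn1g, Fxyd4, Gata3, Tfap2b, Krt18 and Krt7) they were -0.70 and 1.08, both called.

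**Figure D3:**
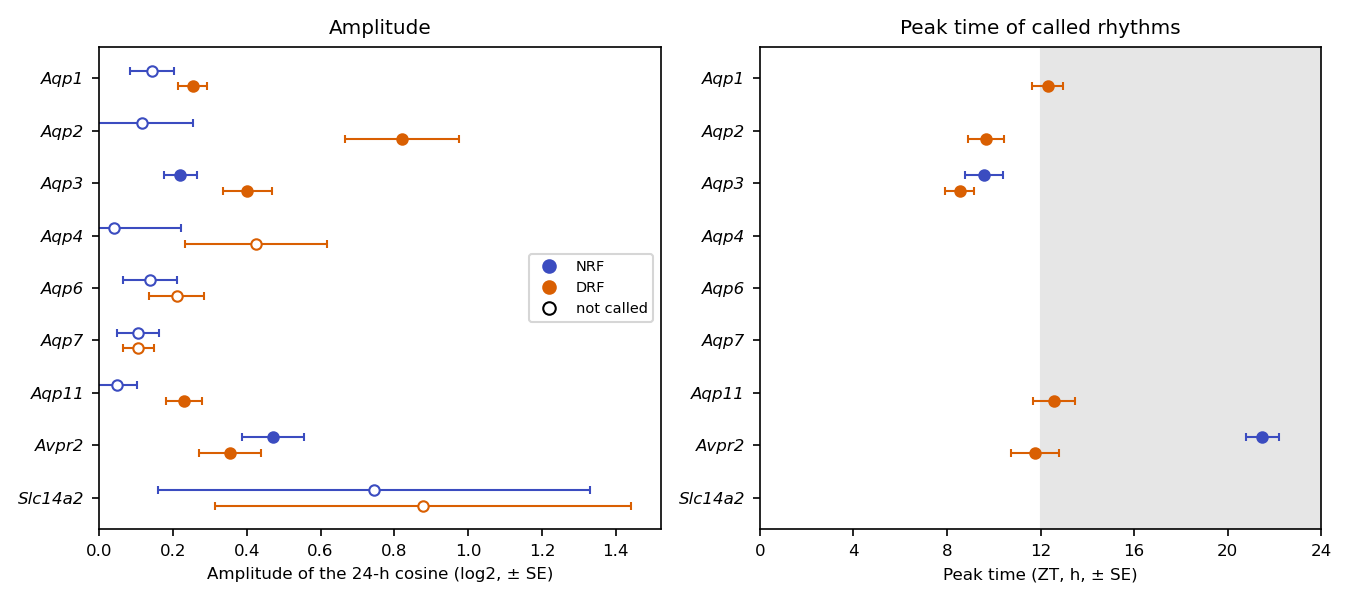
Amplitude of the 24-h cosine on the log2 scale (left, ± SE) and peak time in ZT hours of the called rhythms (right, ± SE) for each gene, in blue for NRF and orange for DRF, with open points for rhythms not called. Fitted peaks of Avpr2 lay at ZT 21.5 h under NRF and ZT 11.8 h under DRF, and those of Aqp3 at ZT 9.58 h and ZT 8.56 h.

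Aqp1 and Aqp11, the channels of the proximal tubule among the called genes, had shallow rhythms under DRF with peaks near lights off. For Aqp1 the DRF libraries at ZT0 held 1031, 883, 1086 and 1280 TPM and those at ZT12 held 1581, 1576, 1729 and 1321 TPM, which did not overlap. The DRF amplitude was 0.25 ± 0.04 with a peak at ZT 12.3 ± 0.67 h (adjusted p = 7.76e-05), a fitted 1.42-fold from trough to peak. Under NRF the amplitude was 0.14 ± 0.06 with a fitted peak at ZT 13.3 ± 1.73 h (adjusted p = 0.109), and the interaction was not called (adjusted p = 0.339). The NRF rhythm of Aqp1 was called with the urothelial score as a covariate (amplitude 0.16, adjusted p = 0.0469), and with the urothelial and thin limb scores the interaction was called (adjusted p = 0.0405). No time point separated the regimens for Aqp1 (adjusted p of 0.206 to 0.952).

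For Aqp11 the DRF libraries held 11.7, 17.9, 15.04 and 11.9 TPM at ZT0 and 19.5, 21.4, 22.8 and 20.2 TPM at ZT16, without overlap. Its DRF amplitude was 0.23 ± 0.05 with a peak at ZT 12.6 ± 0.90 h (adjusted p = 0.00214), against 0.05 ± 0.05 under NRF (adjusted p = 0.731). The interaction was called (adjusted p = 0.0205) and held without any 1 library (adjusted p up to 0.0380). It was lost without the ZT24 groups (adjusted p = 0.194), after rescaling by the median of ratios (adjusted p = 0.0506) and without the libraries above 100 TPM of Psca (adjusted p = 0.0925). No single time point was called for Aqp11, where the largest difference was 0.36 ± 0.13 at ZT16 (adjusted p = 0.0678). ZT16 (0.41, adjusted p = 0.00945) and ZT24 (-0.30, adjusted p = 0.0459) were called with the urothelial score as a covariate, and with the principal cell score ZT16 was called (0.34, adjusted p = 0.0386).

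**Figure D4:**
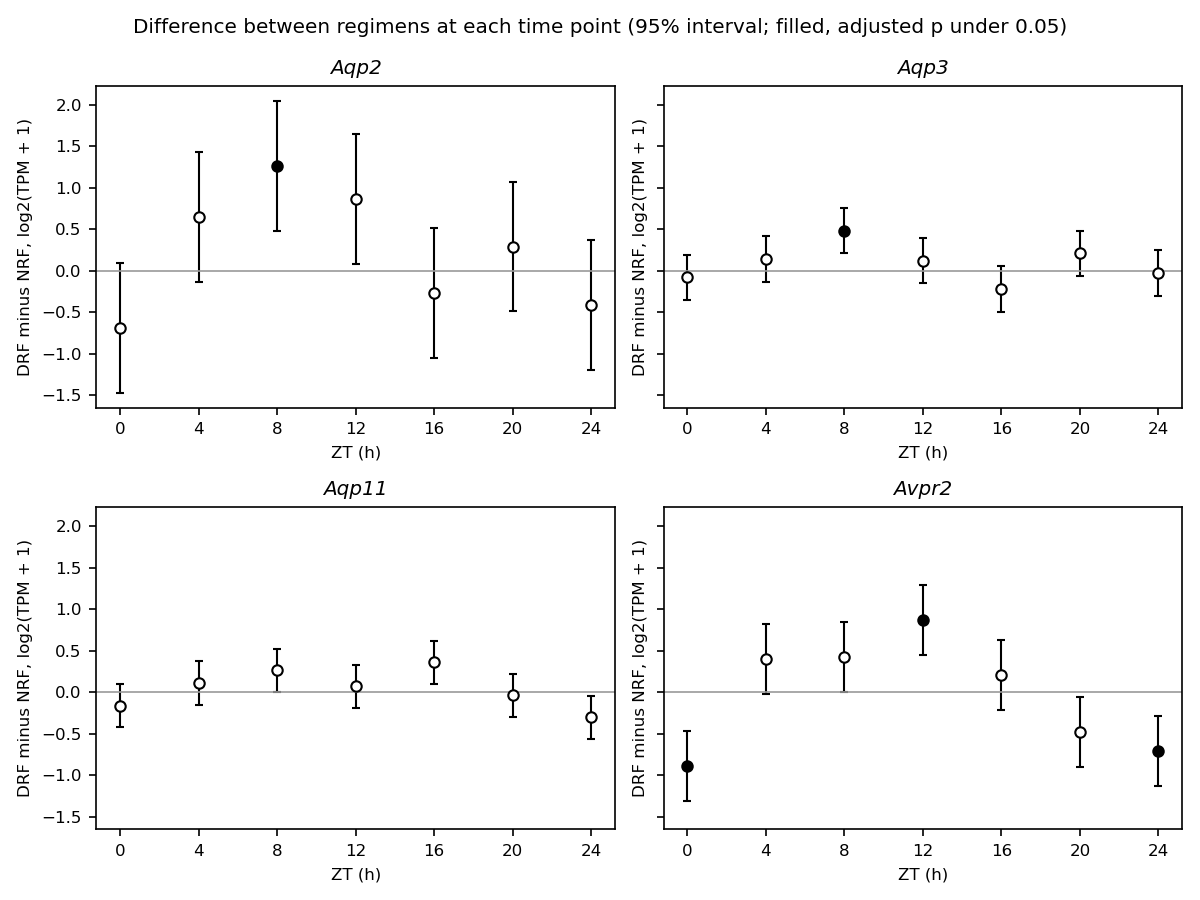
DRF minus NRF difference in log2(TPM + 1) at each ZT for Aqp2, Aqp3, Aqp11 and Avpr2, with 95% intervals from limma and filled points for an adjusted p under 0.05. Aqp2 and Aqp3 were called at ZT8 (1.26 and 0.49), and Avpr2 at ZT0, ZT12 and ZT24 (-0.89, 0.87 and -0.71).

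The remaining genes, Aqp4, Aqp6, Aqp7 and Slc14a2, gave no called rhythm, interaction or difference at a time point when all 56 libraries were used with no covariate or further scaling. Aqp4, the constitutive exit channel of the principal cell, had a DRF amplitude of 0.42 ± 0.19 (adjusted p = 0.182) and an NRF amplitude of 0.04 ± 0.18 (adjusted p = 0.980). Within groups its SD was 0.78 log2 units, wider than in 98.7% of genes, and the 95% interval of its average difference ran from -0.46 to 0.37. With the urothelial score as a covariate the DRF rhythm of Aqp4 was called (amplitude 0.44, adjusted p = 0.00998). Without the libraries above 100 TPM of Psca both its DRF rhythm (adjusted p = 0.0382) and its interaction (adjusted p = 0.0222) were called. At ZT8 Aqp4 was called with the principal cell score (0.93, adjusted p = 0.0273) or the urothelial and thin limb scores (0.81, adjusted p = 0.0151) as covariates. The interaction of Aqp4 was called in these fits too (adjusted p = 0.00801 and 0.0304). Aqp6 had amplitudes of 0.21 ± 0.07 under DRF (adjusted p = 0.0729) and 0.14 ± 0.07 under NRF (adjusted p = 0.267). Its DRF rhythm was called after rescaling by the median of ratios (adjusted p = 0.0444), on the deposited values (adjusted p = 0.0349) and with the principal cell score (adjusted p = 0.0446). Aqp7 was nearly flat, with an amplitude of 0.11 in both regimens and group means of 21.3 to 27.6 TPM, and its DRF rhythm was called on the deposited values (adjusted p = 0.0431). Lower levels under DRF were called with the urothelial and thin limb scores as covariates. These were Aqp6 at ZT4 (-0.38, adjusted p = 0.02795) and Aqp7 at ZT20 (-0.38, adjusted p = 0.0260). Slc14a2 had amplitudes of 0.74 ± 0.58 and 0.88 ± 0.56, but its within-group SD of 2.46 log2 units was wider than in 99.97% of genes. With the urothelial and thin limb scores as covariates its NRF rhythm (amplitude 1.18, adjusted p = 0.0109) and its interaction (adjusted p = 0.0174) were called, and its DRF amplitude was 0.25 (adjusted p = 0.812). Its DRF minus NRF average, 0.67 ± 0.66, had an interval from -0.66 to 1.99 log2 units, so neither a lower level nor a severalfold higher one was detectable as a difference. At single time points its differences ran from -2.13 to 2.36 log2 units with adjusted p of 0.401 to 0.869.

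To set the regimens side by side by feeding rather than by light, DRF groups were compared with the NRF groups 12 h away, with ZT0 and ZT24 averaged. These comparisons use the same groups as those above and are not independent of them. Of 54 such comparisons over the 9 genes, 8 were called. The largest was Aqp2 at DRF ZT8 against NRF ZT20, 1.55 ± 0.39 (adjusted p = 0.00393), and Aqp3 in the same pair differed by 1.06 ± 0.14 (adjusted p = 1.19e-07), where 15.2% of all genes were called. The NRF ZT20 libraries held 303, 288, 482 and 399 TPM of Aqp2 and 199, 185, 187 and 177 TPM of Aqp3, all below the DRF ZT8 libraries. Aligning the meals thus left these 2 genes apart at this hour. Avpr2 was closer under this alignment: its differences were 0.18, 0.03, -0.21, -0.10 and 0.16 at DRF ZT0, ZT4, ZT8, ZT12 and ZT20, none called (adjusted p of 0.576 to 0.952). At DRF ZT16 against NRF ZT4 it was 0.58 ± 0.21 (adjusted p = 0.0268, 33.4% of all genes called). Aqp11 and Aqp1 were also called at DRF ZT16, with 0.39 ± 0.13 (adjusted p = 0.0160) and 0.35 ± 0.14 (adjusted p = 0.0472). The others were Aqp1 and Aqp3 at DRF ZT12, 0.37 ± 0.12 (adjusted p = 0.0244) and 0.34 ± 0.12 (adjusted p = 0.0342), where 18.7% of genes were called. Aqp11 at DRF ZT0 was lower by 0.33 ± 0.11 (adjusted p = 0.0402), where 11.7% were called. None was called at DRF ZT4 or ZT20 (1 each with an unadjusted p under 0.05), where 17.2% and 13.3% of genes were. Apart from Aqp2 and Aqp3 at DRF ZT8, each of these calls was lost without certain single libraries, between 2 and 17 of the 56. Aqp1 at DRF ZT16 fell to 0.17 (adjusted p = 0.358) without NRF ZT4 replicate 1.

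Kidneys taken 24 h apart served as a check within a regimen. ZT24 minus ZT0 was called by limma for none of the 9 genes under NRF or DRF, and none had an unadjusted p under 0.05 in either regimen. Over all genes tested 0.59% were called under NRF and 0.0% under DRF. Among the 9, the differences ran from -0.30 to 0.36 under NRF and from -0.03 to 0.72 under DRF, with Slc14a2 at the upper end of both. A 12-h component was called under DRF in Aqp3 (amplitude 0.20, adjusted p = 0.0290) and Avpr2, and under NRF in none of the 9 (none with an unadjusted p under 0.05). The call in Aqp3 was lost when DRF ZT20 replicate 3 or 4 or DRF ZT8 replicate 1, 2 or 4 was left out (adjusted p up to 0.0753).

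Over the 56 libraries the 9 genes fell into partly overlapping patterns, given here as Pearson correlations of log2(TPM + 1), a description in which libraries share composition and time of day. Aqp2 and Aqp3 were each other's most similar gene among the 8747 others with a mean of at least 10 TPM (r = 0.798). After Aqp3, the genes most similar to Aqp2 were Gal3st1 (0.795), Abcg1 (0.789), Isyna1 (0.761) and Ranbp3l (0.755). For Aqp3 they were Niban1 (0.776), Tns2 (0.702), Them6 (0.679) and Cdk18 (0.668). Among the genes most similar to Avpr2 were Rala (0.837), Vcl (0.834), Zdhhc23 (0.833) and Ran (0.830), and its r with Aqp2 and Aqp3 was 0.624 and 0.200. Slc14a2 was most similar to Angpt2 (0.936), Scel (0.920), Gprc5a (0.896), Bst1 (0.896) and Sim2 (0.892), of which Bst1 is on the list of thin limb markers. Aqp4 was most similar to Mal2 (0.859), Spon1 (0.858), Cryab (0.853), Lrrfip1 (0.851) and Utrn (0.850). For Aqp1 they were Irx1 (0.799), Tmem207 (0.793), Nccrp1 (0.771), Mrps6 (0.768) and Slc6a18 (0.766). Among the genes nearest to Aqp6 were Tmem38a (0.775), Hk1 (0.766), Egfl6 (0.758) and Pcsk6 (0.757), and Aqp7 was nearest to Ldc1 (0.693), Scamp2 (0.634), Tmem176b (0.629), Zfp444 (0.623) and Dusp23 (0.611). Aqp11 was nearest to Sord (0.819), Alpl (0.793), Slc37a4 (0.766), Kynu (0.748) and Shmt2 (0.747).

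Other water and urea channels were scarce. Aqp8, a water and ammonia channel, had a mean of 2.60 TPM and Slc14a1, the UT-B urea transporter of red cells and vasa recta, 9.92 TPM, and these were the 2 of 6 listed genes that reached 1 TPM. Aqp5, Mip and Aqp9 had means of 0.923, 0.184 and 0.157 TPM and were at 0 in 3, 2 and 3 libraries. Aqp8 cycled under both regimens, with amplitudes of 1.02 under NRF (adjusted p = 1.48e-08) and 0.74 under DRF (adjusted p = 9.49e-05), and peaks at ZT 1.44 h and ZT 0.665 h. Its interaction was not called (adjusted p = 0.215). Slc14a1 was not called rhythmic under NRF or DRF (adjusted p = 0.805 and 0.443), and rose by 0.37 ± 0.04 per unit of the urothelial score (adjusted p = 3.98e-10).

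The machinery that carries the vasopressin signal and moves AQP2 was described with a list of 44 genes, of which 41 were tested. Of these, 20 were called rhythmic under NRF, 12 under DRF and 21 in the interaction, beside 52.6%, 36.2% and 46.0% of all genes. The 6 with the lowest adjusted p in the interaction were Avpr1a, Grk2, Akap7, Sipa1l1, Nedd4l and Vamp3. Avpr1a, the type 1a vasopressin receptor, had an amplitude of 0.98 under NRF with a peak at ZT 23.4 h and 0.49 under DRF with a peak at ZT 20.6 h (interaction adjusted p = 3.33e-09). Grk2, a kinase that desensitizes receptors, peaked at ZT 19.97 h under NRF and ZT 7.68 h under DRF with small amplitudes of 0.17 and 0.08 (adjusted p = 5.00e-08). Akap7, an anchor for protein kinase A, had amplitudes of 0.31 and 0.13 (adjusted p = 2.85e-07), and Sipa1l1, which governs AQP2 endocytosis, 0.31 and 0.06 (adjusted p = 2.52e-06). Nedd4l, a ubiquitin ligase, had 0.22 and 0.16 (adjusted p = 6.49e-06), and Vamp3, a vesicle fusion protein, 0.13 in both (adjusted p = 8.14e-06).

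The mesor was called in 2 of the 41, against 12.4% of all genes. Vamp8, a vesicle fusion protein, was higher under DRF by 0.11 ± 0.03 (adjusted p = 0.0105), and Prkaca, the catalytic subunit of protein kinase A, was lower by 0.07 ± 0.02 (adjusted p = 0.0240). The difference in Prkaca lost its call after rescaling by the median of ratios (-0.04, adjusted p = 0.319) and without the libraries above 100 TPM of Psca (adjusted p = 0.0636). Along the urothelial score 19 of the 41 rose and none fell, against 46.1% of all genes rising and 8.82% falling.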

How the data were processed

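Kidney RNA of 56 mice had been sequenced as paired 100-base reads (BGISEQ-500), and the submitters' notes name HISAT2, Bowtie2, RSEM, mm10 and GRCm38.p6, without versions. The authors called the deposited values TPM, but the deposited score of a gene equals log2(1 + CPM) divided by gene length and scaled. The design had assumed linear TPM. Reads were therefore recovered from these steps with GENCODE M21 exon lengths or a searched length: 15687 of 17027 genes (92.1%) gave reads, and 99.9% of values in whole-read genes lay within 0.05 of a whole number. For Aqp7, 71.4% of values were whole. TPM was then reads per length, scaled to 1e6 over these genes, and the 1340 genes without reads were left out. Depth was 21.8 to 24.5 M recovered reads.

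Tests ran in limma 3.58.1 (R 4.3.3, mean-variance trend) on log2(TPM + 1), a scale that understates changes of low genes, over 12534 genes with a mean of at least 1 TPM, with Benjamini-Hochberg adjustment and a threshold of 0.05. Rhythm was a moderated F test of a 24-h cosine in 28 libraries per regimen, the interaction used all 56, and other contrasts came from 1 fit of the 14 groups, with a group term for the slope. The mesor is the mean over clock times. The tests were tried on simulated data. The members, gene lists and motifs were chosen with earlier results of these data known. Named genes were all 9 members, the listed other channels, the 6 signalling genes with the lowest interaction p and those called in the mesor, and the 5 genes most correlated with each member, of which 2 are not reported here. One NRF ZT24 column carries a number outside the labels and is called the library with no number. Gene symbols were matched for 15627 genes, and promoters came from RefSeq. Proteins were not used here. Alternatives were the pseudocount, the filter, the scaling, the replicates, marker scores as covariates and subsets of libraries.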

Additional observations from a re-analysis of the deposited data

Results flagged for a closer look

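A library stood apart from the other 3 of its group, by Dixon's test at the 95% level on log2(TPM + 1), in 14 of 126 groups, where chance alone gives about 1 in 20. In Aqp2 these were DRF ZT4 replicate 4 at 1440 TPM, NRF ZT8 replicate 1 at 975 TPM and NRF ZT16 replicate 2 at 1032 TPM, each above the rest and each with Psca above 100 TPM. In Slc14a2 they were DRF ZT12 replicate 4 at 1.82 TPM, DRF ZT24 replicate 4 at 0.136 TPM and NRF ZT4 replicate 1 at 0.269 TPM, each below the rest and each with Psca under 1 TPM. NRF ZT4 replicate 1 was also low in Aqp1 at 824 TPM and in Aqp7 at 18.4 TPM. The others were Aqp4 in DRF ZT8 replicate 1 at 54.6 TPM, Aqp6 in NRF ZT0 replicate 4 at 114 TPM, Aqp7 in NRF ZT8 replicate 3 at 32.1 TPM, Aqp11 in DRF ZT12 replicate 3 at 15.4 TPM and in NRF ZT0 replicate 4 at 14.4 TPM, and Avpr2 in DRF ZT24 replicate 4 at 22.3 TPM.

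The rhythm differed between DRF and NRF in Aqp2 (adjusted p = 0.00703), Aqp11 (adjusted p = 0.0205) and Avpr2 (adjusted p = 2.45e-06), by the interaction test in limma.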

How the results depend on the processing

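Counts of called members changed most when marker scores were added as covariates and when a numbered replicate was left out of every group. The cause was not tested. With the urothelial score as a covariate, 12 differences at a time point were called in place of 5, 4 in the 12-h component in place of 2, and 1 in the mesor in place of 0. The principal cell score, which holds 3 markers called lower under DRF, gave 15, 4 and 3, with 5 interactions in place of 3. The urothelial and thin limb scores together gave 16, 4 and 3, with 7 interactions and 17 meal-aligned differences in place of 8. Without a covariate 8.69% to 30.7% of all genes were called at a time point and 11.7% to 33.4% aligned to the meal. The interaction was called in 46.0% and the mesor in 12.4%. Apart from a mesor count below, counts over all genes with covariates are not given here. A gain particular to the members therefore cannot be read from these counts. Without the libraries above 100 TPM of Psca there were 8 at a time point, 1 in the mesor and 4 slopes in place of 8. Rescaling by the median of ratios or by effective library size gave 1 in the mesor and 7 at a time point each, and the deposited values also gave 7 at a time point. The deposited values as they are gave 1 in the 12-h component, and leaving out ZT24 gave 4 meal-aligned differences. The runs without the libraries above 100 TPM of Psca, with both scores, with effective library size and without each single library were chosen after seeing the data. Without replicate 1, 2, 3 or 4, calls ran from 2 to 4 for rhythm under NRF, 4 to 7 under DRF, 1 to 3 for the interaction, 1 to 7 at a time point, 2 to 9 aligned to the meal, 1 to 2 in the 12-h component and 7 to 8 slopes. Leaving out each library in turn gave 2 to 3, 5 to 6, 3 to 3, 4 to 7, 5 to 9, 1 to 4 and 8 to 8, and 0 to 1 in the mesor. No called value changed sign under any alternative. Replicate numbers did not pair libraries (median r = 0.005 over 351 same-numbered pairs), and with the replicate block, from which the library with no number was dropped, 3 interactions, 5 differences at a time point and 7 meal-aligned differences were called. Over all genes the mesor was called in 1559, against 1008 with the deposited values, 2516 with the urothelial and thin limb scores, and 805, 946 and 548 without replicate 1, 2 and 3. The slope was called in 6882, against 650 without the libraries above 100 TPM of Psca and 4497 without replicate 4. Rhythm under DRF had 4538 calls, against 2350 to 2544 without replicate 1, 2 or 3, and the 12-h component 3959, against 2371 to 2623. Without replicate 3, calls at a time point were 8805 of 16545 and meal-aligned calls 7633 of 13717. ZT24 minus ZT0 had 74, against 41 with a minimum of 5 TPM, and 48 and 39 without replicate 1 and 3. Rescaling moved the median of all genes by at most 0.09 log2. Slc14a2 had only 3 reads in its lowest library, which limits its values there.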

Other observations

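Marker sums put the members' values in context. The 8 principal cell markers summed to 783 to 1137 TPM in NRF and 725 to 1034 in DRF, and the 8 intercalated cell markers to 652 to 1017 and 616 to 878. The 9 urothelial markers summed to 6.01 to 1595 in NRF and 4.16 to 1092 in DRF, with Upk3a, Upk2 and Krt5 at 0 in 6, 3 and 10 libraries. The 7 thin limb markers summed to 124 to 853 and 114 to 935, with Sptssb at 0 in 5. The 8 markers of thick ascending limb and distal convoluted tubule summed to 6846 to 12131 and 5244 to 10850, and the 8 of proximal tubule with reads to 4834 to 8899 and 5814 to 8306. Glomerular markers summed to 283 to 588 and 289 to 483, endothelial to 117 to 264 and 140 to 273, and immune markers to 738 to 2085 and 513 to 1417. Adipose markers ran from 0.480 to 3161 and from 0.265 to 608, with Adipoq, Plin1 and Cfd at 0 in 7, 17 and 8 libraries. Alas2, the blood marker with reads, ran from 4.55 to 46.7 and 7.08 to 41.4, and the adrenal markers from 4.55 to 7.52 and 4.09 to 7.64, with Cyp11a1 and Hsd3b1 at 0 in 3 and 9.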
